A study of Mus musculus with 4 samples.

Results

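The genes of fatty acid synthesis were followed on 4 microarrays of mouse cells undergoing reprogramming, with AKT activated on 1 of them. All probes carrying the gene names Srebf1, Acly, Acss2, Me1, Acaca, Fasn, Elovl6, Scd1, Scd2 or Fads2 were taken. These genes are known as the lipogenic program downstream of AKT and SREBP1, and they were picked with earlier results of these data known. This gave 10 genes and 18 probes among 34816 genes or transcripts and 55681 probes. In AKT-activated cells the transcripts of the stearoyl-CoA desaturases Scd1 and Scd2 and of Srebf1 were higher than in AKT-nonactivated cells carrying the same transgenes. The difference was 1.88-fold for Scd1, 1.76-fold for Srebf1 and 1.59-fold for Scd2. The transcripts of the enzymes that make acetyl-CoA, malonyl-CoA and palmitate (Acly, Acss2, Acaca and Fasn) were not higher by 1.5-fold, and their differences lay between −0.22 and 0.02 on the log2 scale. Each group was 1 array, so no difference had a replicate check, and no test or p-value is given.

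Cells make saturated fat from carbohydrate in a fixed order. Citrate leaves the mitochondrion and ATP citrate lyase (Acly) splits it to acetyl-CoA in the cytosol, while Acss2 makes acetyl-CoA from acetate and malic enzyme (Me1) supplies NADPH. Acetyl-CoA carboxylase (Acaca) makes malonyl-CoA, fatty acid synthase (Fasn) builds palmitate, Elovl6 lengthens it to stearate, and the desaturases Scd1 and Scd2 place a double bond to give monounsaturated fatty acids. Srebf1 encodes SREBP1, the transcription factor that drives these genes. AKT is known to raise its activity through mTORC1 and to act on ATP citrate lyase directly, so enzyme activity can change where the transcript does not.

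The cells were mouse embryonic fibroblasts from E13.5 male embryos of an Oct4-EGFP transgenic strain (OE-MEFs). All 4 groups were transduced by retrovirus with Oct4, Sox2 and Klf4 (OSK), and the OSKA groups also received AKT-MER, a myristoylated AKT fused to a modified estrogen receptor that is active only with 4-hydroxytamoxifen (4OHT). From 3 days postinfection (dpi) each kind of cell was given 4OHT or a mock, and RNA was taken at 8 dpi. The groups were therefore OSK without 4OHT, OSK with 4OHT, OSKA without 4OHT (AKT-nonactivated) and OSKA with 4OHT (AKT-activated), with 1 array each on 1 slide. The estrogen receptor probe of Esr1 read 3.11 and 3.32 (log2) on the OSKA arrays without and with 4OHT and was not distinguishable from background in OSK cells, which puts the kinds of cell at least 219-fold and 233-fold apart, the way the titles name them. A free-text note on the array titled OSKA with 4OHT says that AKT-MER was not active there; the title and the treatment were followed.

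A level is the log2 intensity of a probe relative to the 75th percentile of its own array, which was 462, 377, 403 and 384 intensity units on the arrays of OSK without, OSK with, OSKA without and OSKA with 4OHT, in that order. A level does not compare abundance between genes, because probes bind differently. All 18 probes were well above background on all 4 arrays, and no spot was saturated. Where a gene had several probes, the brightest on average stands for it. The scanner software's own error for a difference between 2 arrays had a median of 0.20 (log2) over the genes' probes, and the 10 spots of a repeated probe had an SD of 0.059 to 0.068 within an array over 399 such probes, which gives 0.096 for a difference of 2 single spots. Both cover the array alone and leave out the spread between cultures. The 10 fibroblast markers were well above background on every array, with summed linear levels of 1570 to 1885, highest in AKT-activated cells. Between the OSKA arrays Lum was 2.18-fold higher with 4OHT and Pdgfrb was 0.627-fold. Of 10 markers of pluripotent cells, 8 were well above background on every array, and Zfp42 and Esrrb on none. Between the OSKA arrays Fbxo15 was 2.45-fold and Dnmt3l 1.51-fold higher with 4OHT and Tdgf1 was 0.602-fold. For Fbxo15 the AKT-nonactivated array was the lowest of the 4, at −2.29. With 4OHT present in both, Fbxo15 was 1.09-fold in cells with AKT-MER relative to cells without it. The summed linear level of the 10 pluripotent cell markers was lowest in AKT-activated cells, at 4.099. It was 4.269 in OSK cells without 4OHT, 5.285 in OSK cells with 4OHT and 5.148 in AKT-nonactivated cells. The part of such markers in the results was not tested. These are whole cultures, so fewer cells of a type and less RNA per cell cannot be told apart.

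The probes of the genes with differences past 1.5-fold are shown because each such gene rests on 1 or 2 short stretches of its transcript. The first 30 of the 60 bases are given, 5′ to 3′, with positions in the mouse build NCBI37 (mm9) from the array files, which do not say which exon or UTR they lie in. The longest run of bases shared by the Scd1 and Scd2 probes was 6, so the 2 desaturases were read by different sequence.
Srebf1 (chr11:60012694-60012723, minus strand): ggtcggcatccacaggccgcacacttccaa
Scd1 (chr19:44469417-44469446, minus strand): actcctgggctaagtatctgacagtctcac
Scd2 (chr19:44381024-44381053, plus strand): acatttggggatcctctgcagaggagtatt
Acss2 (chr2:155388416-155388445, plus strand): tttcttgttctttttgtgctcaagacccac

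Srebf1, the transcription factor of the pathway, was measured by 1 probe. Its level was −1.68 in OSK cells without 4OHT, −1.52 in OSK cells with 4OHT, −1.83 in AKT-nonactivated cells and −1.02 in AKT-activated cells. The AKT-activated array was the highest, 0.49 above the next array, with a software error of 0.21 for that difference. The other 3 arrays had an SD of 0.16, but they are 3 different groups, so it is no spread between replicates. The difference with 4OHT was 0.81 in OSKA cells, against 0.16 in OSK cells. The probe was dim, at 113 to 189 intensity units, and the value depended on the background correction: with the normexp method it was 0.55 or 0.56, below 1.5-fold (0.58).

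Scd1, the desaturase that is prominent in liver and adipose tissue, read 2.74, 2.45, 2.35 and 3.26 in OSK cells without, OSK cells with, OSKA cells without and OSKA cells with 4OHT. The AKT-activated array again lay highest, but by 0.52 over OSK cells without 4OHT, and the 1.88-fold difference was against the lowest array of the set. With 4OHT present in both, cells with AKT-MER were 1.75-fold higher than cells without it. In OSK cells the transcript was lower with 4OHT, by 0.29 (log2).

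Scd2, the desaturase widely expressed in embryonic tissue and brain, gave the levels 6.03, 5.88, 5.81 and 6.49 on the same arrays in the same order. It ranked the 4 arrays as Scd1 did, with the AKT-activated array 0.46 above the next. The difference with 4OHT was 0.67 in OSKA cells, against −0.15 in OSK cells, and AKT-MER cells exceeded OSK cells by 1.53-fold with 4OHT. On the deposited linear intensities the AKT-activated array read 34359 units and the AKT-nonactivated array 22656. A probe that the array design assigns to Scd3 and that also lists the Scd1 transcript was also highest on the AKT-activated array, and 4OHT went with a difference of 0.45 there and −0.42 in cells without AKT-MER. A probe for Scd3 alone gave −0.13 and 0.16, and that of Scd4 −0.18 and −0.34.

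**Figure D1:**
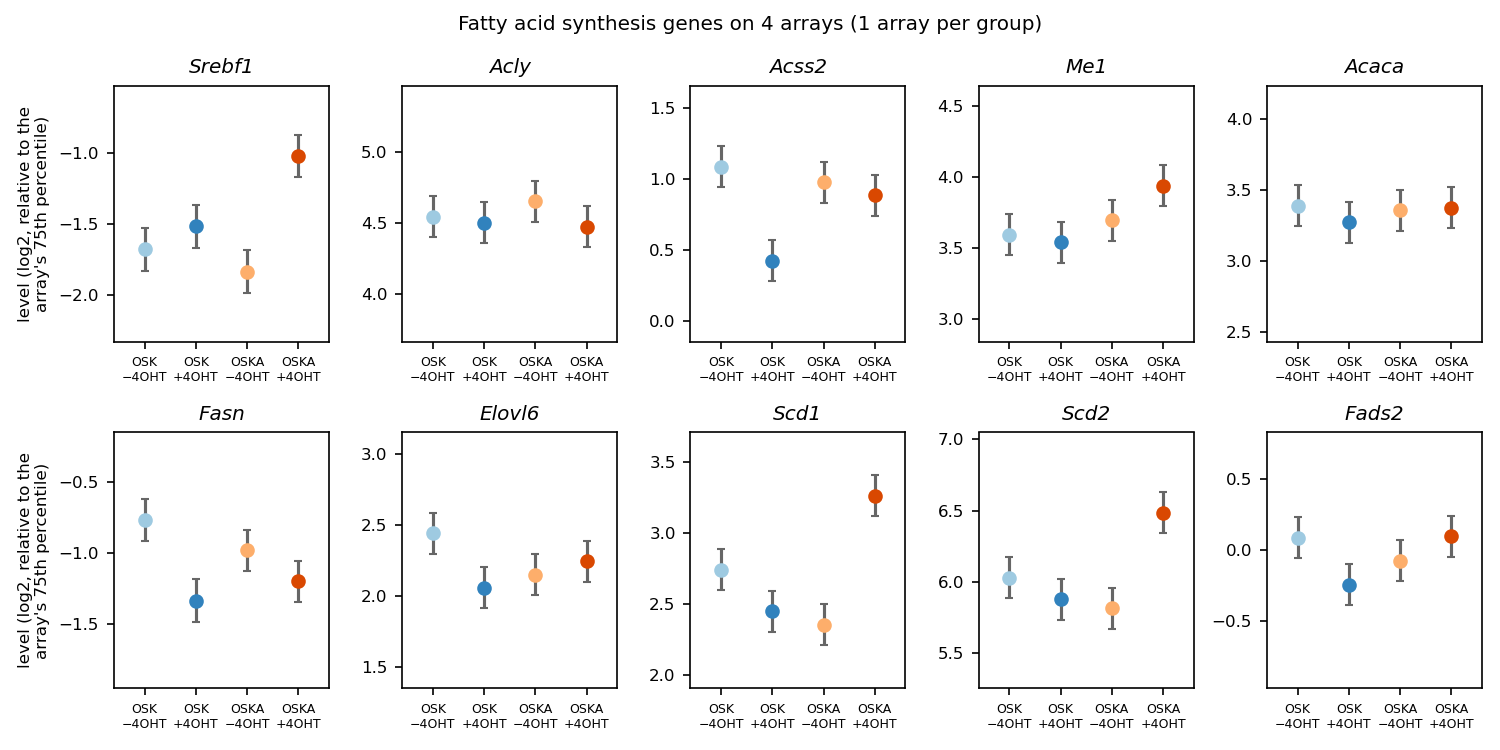
Level of each fatty acid synthesis gene (log2, with the array's 75th percentile at 0) on the 4 arrays, 1 point per array, with the scanner software's error as bars; every panel spans 1.8 log2 units. Srebf1, Scd1 and Scd2 lay highest on the OSKA array with 4OHT, by 0.49, 0.52 and 0.46, while Acly and Acaca covered 0.18 and 0.12 in all.

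The enzymes that supply acetyl-CoA and NADPH showed no common direction. Acly read 4.55, 4.50, 4.66 and 4.48, a range of 0.18, which is within the software's error. Its AKT-activated array was the lowest of the 4. A second Acly probe was dim, at 63 to 83 intensity units, and differed from the first in OSK cells, with 0.38 against −0.04. Me1 read 3.60, 3.54, 3.70 and 3.94, highest in AKT-activated cells by 0.24. Its 3 probes gave −0.00 to 0.29 for the difference with 4OHT in OSKA cells and 0.31 to 0.50 between AKT-MER cells and OSK cells with 4OHT.

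Acss2, acetyl-CoA synthetase of the cytosol and nucleus, set 1 OSK array apart. Its level was 1.08 without and 0.42 with 4OHT in OSK cells, and 0.97 and 0.88 in OSKA cells. The OSK array with 4OHT was the lowest by 0.46, and the other 3 lay within 0.20 of each other. The OSK difference of −0.66 corresponds to 0.632-fold, the only difference of the 10 genes past 1.5-fold in that comparison. A second Acss2 probe gave −0.56 there, so the direction came from both probes but the 1.5-fold mark was passed by 1.

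Acaca, which commits acetyl-CoA to fatty acid synthesis, had the narrowest range. It read 3.39, 3.27, 3.36 and 3.37, a range of 0.12. Of its 4 probes, a bright pair gave 0.01 and 0.02 for the difference with 4OHT in OSKA cells, and 2 dim ones, at 31 to 87 intensity units, gave 0.02 and 0.07. In OSK cells the dim probes disagreed, at 0.54 and −0.87. The bright pair is not independent. The probes share 55 bases, although the files place one at chr11:84215093-84215152 and the other at chr12:10166955-10167014, and their last 30 bases are printed with the shared run in capitals.
Acaca, chromosome 11 probe: TGTTGAAATAAACCTCCACATTTGTAgaag
Acaca, chromosome 12 probe: GTTGAAATAAACCTCCACATTTGTAaaaaa

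Fasn, which assembles palmitate, was lower in AKT-activated than in AKT-nonactivated cells by less than 1.5-fold, and 0.14 higher than in OSK cells with 4OHT. Its level was −0.77 and −1.33 in OSK cells without and with 4OHT, and −0.98 and −1.20 in OSKA cells without and with 4OHT. The array of OSK cells without 4OHT was the highest by 0.21, and 4OHT was accompanied by a lower level in both kinds of cell, by 0.57 in OSK cells and by 0.22 in OSKA cells. The OSK difference, 0.675-fold, was just short of 1.5-fold. Fasn was also a dim probe, at 149 to 271 intensity units, and normexp gave −0.41 or −0.44 for the same difference.

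Elovl6, the elongase acting on palmitate, read 2.44, 2.06, 2.15 and 2.24. It was lower with 4OHT in OSK cells, by 0.38, and 0.09 apart in OSKA cells. Fads2, the delta-6 desaturase of polyunsaturated fatty acids, read 0.09, −0.24, −0.07 and 0.10, so that the highest arrays, AKT-activated cells and OSK cells without 4OHT, were 0.01 apart. Its second probe was likewise lower with 4OHT in OSK cells, at −0.72 against −0.33 for the first.

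Counted together, 7 of the 10 genes were higher in AKT-activated than in AKT-nonactivated cells, where 45.2% of all measured genes were. Of these, Scd1, Srebf1 and Scd2, (3 genes) were at least 1.5-fold higher (5.06% of all measured genes) and 0 were at least 1.5-fold lower (4.64%). The median difference was 0.13 (log2), against −0.03 over all 20302 genes measured on both arrays. Among those genes 2.40% lay above Scd1, 2.92% above Srebf1 and 4.03% above Scd2. None of the 10 genes reached a 2-fold difference in any of the 4 comparisons, where few genes did: 0.891% of all measured genes for 4OHT in OSK cells, 2.92% in OSKA cells, 2.02% for AKT-MER without 4OHT and 3.04% with 4OHT.

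In OSK cells, which lack AKT-MER, 1 of the 10 genes (Srebf1) was higher with 4OHT and 9 were lower, while 49.4% of all measured genes were higher. The 1.5-fold mark was passed upward by 0 of the 10 (4.33% of all genes) and downward by Acss2 alone (1.63%). The median difference was −0.22, against −0.004 over 19862 genes. Of those genes 1.08% lay below Acss2, 1.82% below Fasn and 5.84% below Elovl6. With 1 array per group, 4OHT itself and the spread between cultures cannot be told apart in these values. The OSKA difference was the more positive for 9 of the 10 genes (45.7% of the 19542 genes measured on all 4 arrays), by 1.20 for Scd1, 0.83 for Scd2, 0.65 for Srebf1, 0.57 for Acss2, 0.50 for Fads2 and 0.48 for Elovl6. Acly was the exception at −0.13. The Acss2 gap came with a difference of −0.09 in OSKA cells, and the Fasn gap of 0.35 with −0.22 there.

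**Figure D2:**
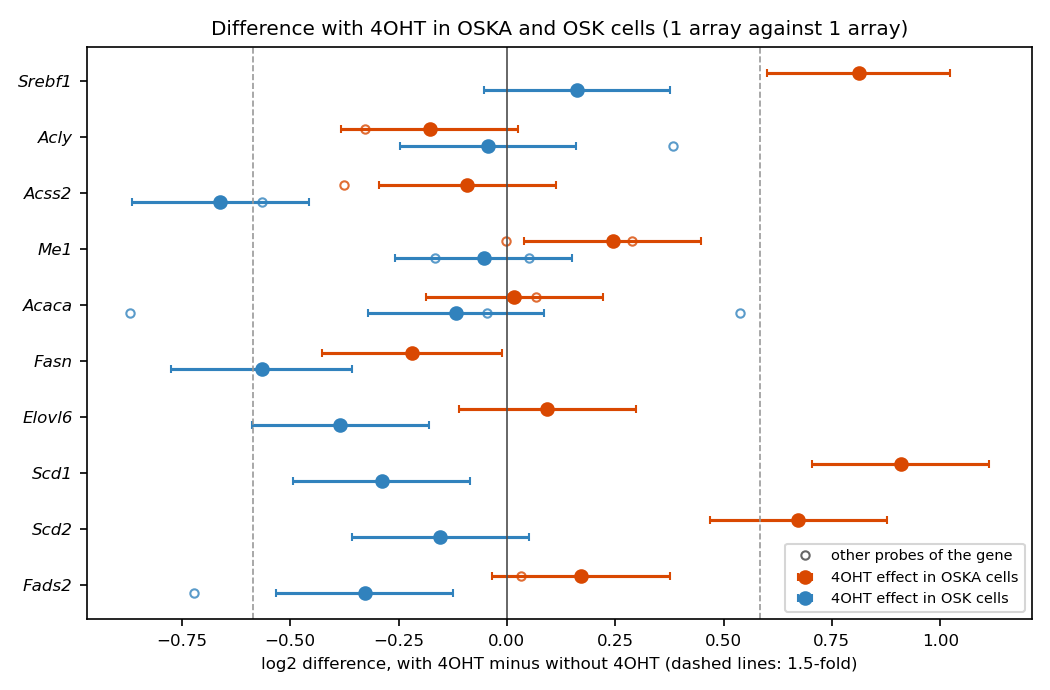
Log2 difference with 4OHT minus without 4OHT in OSKA cells (orange) and OSK cells (blue) for each gene; filled points are the probe that stands for the gene, with the scanner software's error of the difference, and open points are its other probes. Srebf1, Scd1 and Scd2 passed the dashed 1.5-fold line in OSKA cells, and Acss2 in OSK cells; The filled points of Acly, Me1 and Acaca lay between −0.18 and 0.24 in both, while open points of Acaca reached 0.54 and −0.87 in OSK cells.

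The vector itself was compared on the arrays without 4OHT. There 2 of the 10 genes, Acly and Me1, were higher with AKT-MER (47.0% of all genes), and 0 passed 1.5-fold upward (5.67%) or downward (3.99%). Scaling to the spike-in controls, which lowered the median of all genes by 0.44 here, put 6 of the 10 past 1.5-fold downward, with 28.3% of all genes, and turned Acly and Me1 to −0.33 and −0.34. The differences ran from −0.39 for Scd1 to 0.11 for Acly, with a median of −0.16. With 4OHT present, 9 of the 10 were higher in AKT-MER cells (42.9% of all genes), Scd1 and Scd2 by at least 1.5-fold (5.46%) and none lower by that much (5.11%). With spike-in scaling Scd2 was at 0.48, short of 1.5-fold, which left Scd1 alone past it, and Acaca turned to −0.03. The median was 0.37, and Srebf1, Acss2 and Me1 had 0.49, 0.46 and 0.40. The 4 comparisons reuse the same 4 arrays, so these counts are not independent of those above.

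**Figure D3:**
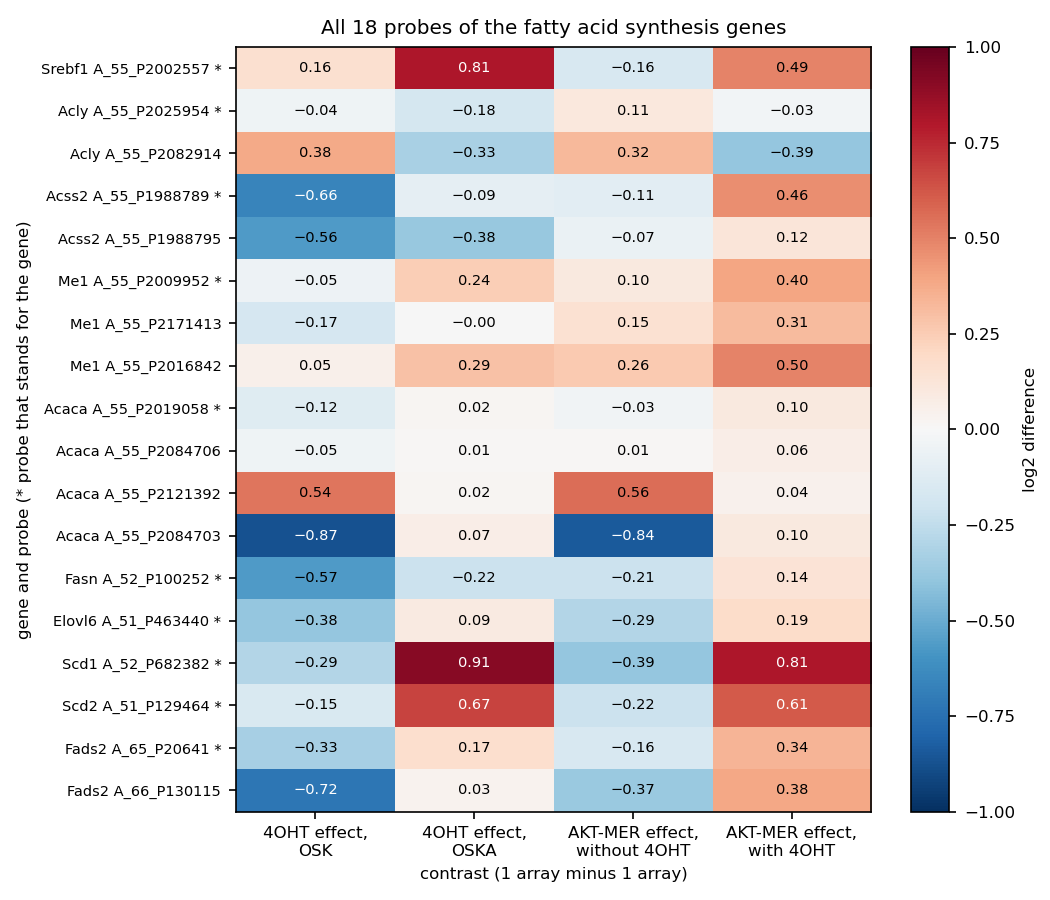
Log2 differences of all 18 probes (rows, with the gene name; an asterisk marks the probe that stands for the gene) in the 4 comparisons (columns), from blue for lower to red for higher. The Scd1, Scd2 and Srebf1 rows are red in OSKA cells, and the dim other probes of Acaca depart from the first both in OSK cells (−0.87 and 0.54 against −0.12) and for AKT-MER without 4OHT (−0.84 and 0.56 against −0.03).

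Of 16 genes that control SREBP or act beside it in lipogenic transcription, 6 were higher and 10 lower with 4OHT in OSKA cells, where 45.2% of all genes were higher. The median was −0.11 and none passed 1.5-fold by the probe that stands for the gene. Of all measured genes 5.06% passed it upward and 4.64% downward. Among those higher were Mlx and Nr1h3, at 0.38 and 0.37, and the probes of Mlxipl disagreed, at −0.56 and 0.88. Srebf2, which encodes the sterol-regulating SREBP2, read 0.31, 0.11, 0.25 and 0.03 on the 4 arrays, a difference of −0.22 in OSKA cells and −0.20 in OSK cells. Its second probe gave 0.19 and −0.10. Insig1, which holds SREBP precursors in the endoplasmic reticulum and is itself an SREBP target, was lower in AKT-activated cells, by 0.46, and −0.01 apart in OSK cells.

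Genes of acetyl-CoA, citrate and NADPH supply other than the 10 had a small median. Of the 15 measured, 10 were higher and 5 lower in AKT-activated than in AKT-nonactivated cells (45.2% of all genes were higher, as for the lists that follow), with a median of 0.07. Mdh1, cytosolic malate dehydrogenase, was 1.59-fold higher in OSKA cells with 4OHT and 1.02-fold in OSK cells. Its AKT-nonactivated array was the lowest of the 4, at 4.07 against 4.40, 4.43 and 4.73. Slc25a1, the citrate carrier that feeds Acly, gave 0.11 in OSKA cells and −0.13 in OSK cells.

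Among 15 measured genes of elongation and desaturation, 9 were higher and 6 lower in AKT-activated cells, with a median of 0.02. Elovl7, an elongase of long saturated chains, read −1.88, −2.10, −2.16 and −1.21, a 1.93-fold difference in OSKA cells, and −0.22 (log2) in OSK cells. Elovl4, an elongase of very long chains, was lower with 4OHT in OSK cells, by 0.66, and 0.32 higher in OSKA cells, where a second probe gave 0.84. Fads1, the delta-5 desaturase, gave 0.02 in OSKA cells and −0.37 in OSK cells. Of 11 genes linked to acetyl-CoA carboxylase and fatty acid synthase, 9 were well above background on both arrays of a comparison. None of the 9 passed 1.5-fold in either kind of cell. Over all measured genes 5.06% passed it upward and 4.64% downward in OSKA cells, and 4.33% and 1.63% in OSK cells. The filter left out Thrsp, a lipogenic protein named after its values were seen, which was well above background only in AKT-activated cells and there at least 5.03-fold higher than in AKT-nonactivated cells. Acacb, the mitochondrial carboxylase, gave −0.35 in OSKA cells and −0.28 in OSK cells.

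Downstream, 10 of 18 genes of fatty acid activation, glycerolipid synthesis and storage were higher in AKT-activated cells, with a median of 0.02. Dgat2, which completes triacylglycerol, was 2.47-fold higher, at 0.85, 0.56, 0.54 and 1.84 on the 4 arrays, and the AKT-activated array stood above the other 3 as it did for Scd1. Lpl, lipoprotein lipase, was 1.83-fold higher with 4OHT in OSK cells and 1.01-fold in OSKA cells.

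The cholesterol pathway is the other branch under SREBP control. Of 19 genes of sterol synthesis and uptake, 18 were lower and 1 higher with 4OHT in OSKA cells (45.2% of all genes were higher), with a median of −0.50. By the probe that stands for each gene, all 19 were lower in OSK cells (49.4% of all genes were higher), with a median of −0.36. A second Fdft1 probe went the other way there, at 0.37 against −0.46. It also did for AKT-MER without 4OHT, at 0.34 against −0.30. Between cells with and without AKT-MER, 18 of 19 were lower too, with a median of −0.15 without 4OHT and −0.31 with it (47.0% and 42.9% of all genes were higher). Nsdhl, Idi1 and Lss, enzymes of the pathway, had −0.84, −0.83 and −0.72 in OSKA cells and −0.67, −0.67 and −0.65 in OSK cells, although a second Nsdhl probe gave −0.30 and −0.39. In OSK cells 9 of the 10 fatty acid synthesis genes, Scd1 and Scd2 among them, were lower with 4OHT like the sterol genes. In OSKA cells Scd1, Scd2 and Srebf1 were higher with 4OHT, opposite to 18 of the 19.

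**Figure D4:**
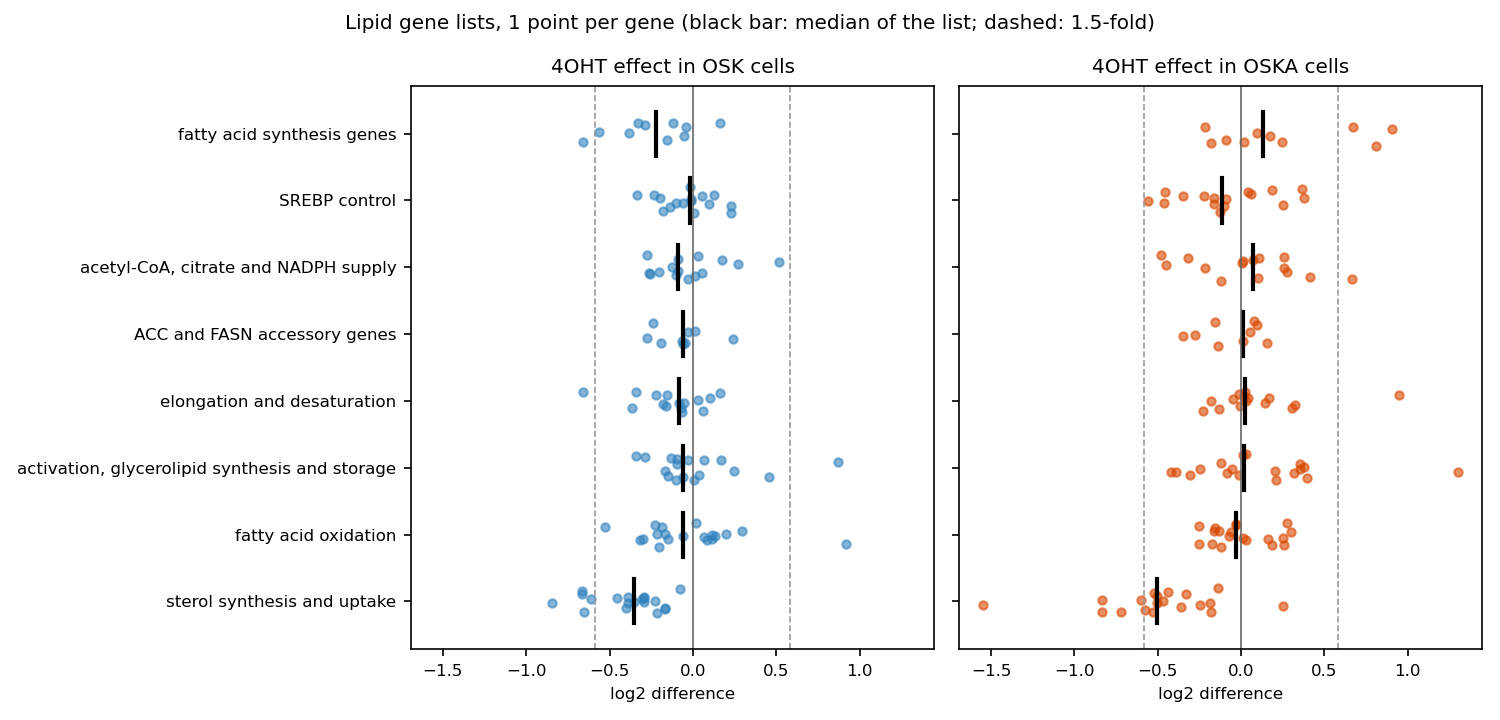
Log2 difference with 4OHT in OSK cells (left) and OSKA cells (right), 1 point per measured gene in each of 8 lists (rows), with the list's median as a black bar and 1.5-fold as dashed lines. The sterol genes lay below 0 on both sides, with 1 exception in OSKA cells (medians −0.36 and −0.50), and the 10 fatty acid synthesis genes had medians of −0.22 and 0.13.

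The genes whose pattern over the 4 arrays was most like that of Scd1, after each was centred on its mean, were Olfr1350, Scube3 and Slc35g1, at root mean square distances of 0.015, 0.025 and 0.040 (log2) among 4967 genes of comparable range. Scd2 was 46th, at 0.097, and Srebf1 238th, at 0.16. With 4 arrays, many genes fit a pattern this closely.

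Promoter windows of 250 bases before and 50 after annotated starts were found in RefSeq (GRCm38.p6) for 8 of the 10 genes, 11 windows in all; Scd1 and Scd2 had none in the table. Both strands were searched for a sterol regulatory element, spelled TCACNCCAC, and an E-box, spelled CACGTG. They were also searched for the letters CCAAT of the box of that name, and for the GC box, spelled GGGCGG. A match to one motif may overlap a match to another. None of the 11 windows held the first or the E-box in these exact letters, which are in 1.24% and 7.15% of all 32851 windows. At shares this low, 11 windows would often hold none. Other spellings of the 2 sites were not searched, so these genes may still carry them. CCAAT was in 6 of 11 (37.4% of all) and GGGCGG in 6 of 11 (35.7%). The 100 bases before the start are printed for Srebf1 at the 2 of its 3 starts with a GC box, and for Fasn. Srebf1 was higher and Fasn lower in AKT-activated than in AKT-nonactivated cells. Srebf1 was read by 1 probe, so its difference was not assigned to any of the 3 starts. The first start, not printed, had a CCAAT match 166 bases before it. Capitals mark CCAAT and GGGCGG on either strand. A match is a string of letters and no evidence of binding.
Srebf1, second start (chr11:60220628-60220727, minus strand): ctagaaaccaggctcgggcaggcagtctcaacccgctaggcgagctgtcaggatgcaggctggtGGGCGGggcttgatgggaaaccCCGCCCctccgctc
Srebf1, the third start (chr11:60210472-60210571, minus strand): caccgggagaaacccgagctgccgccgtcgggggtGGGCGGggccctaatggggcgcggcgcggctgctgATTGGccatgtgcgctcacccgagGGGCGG
Fasn (chr11:120824548-120824647, minus strand): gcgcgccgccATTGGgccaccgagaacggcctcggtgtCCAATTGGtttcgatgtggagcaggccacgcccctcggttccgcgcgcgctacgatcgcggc
The Fasn window held 3 CCAAT matches, starting 90, 62 and 59 bases before the start, the last pair overlapping, and no GGGCGG.

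Of 9 other settings, 2 filters and the authors' value table could not change these genes' values beyond rounding. Averaging the probes of a gene could not change the 5 genes with 1 probe, among them Scd1, Scd2 and Srebf1. Over all 9, Scd1 ran from 0.85 to 0.92, Scd2 from 0.67 to 0.76 and Srebf1 from 0.55 to 0.85 in OSKA cells, the lowest Srebf1 values with normexp and below 1.5-fold. Acss2 went from −0.09 to −0.23 there when its probes were averaged. The OSK differences moved most with spike-in scaling, since scaling to the spike-in controls lowered all genes by a median of 0.31 in that comparison. Acss2 then read −0.97, 5 of the 10 genes passed 1.5-fold downward, with 11.3% of all genes, and Srebf1 turned to −0.15.

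**Figure D5:**
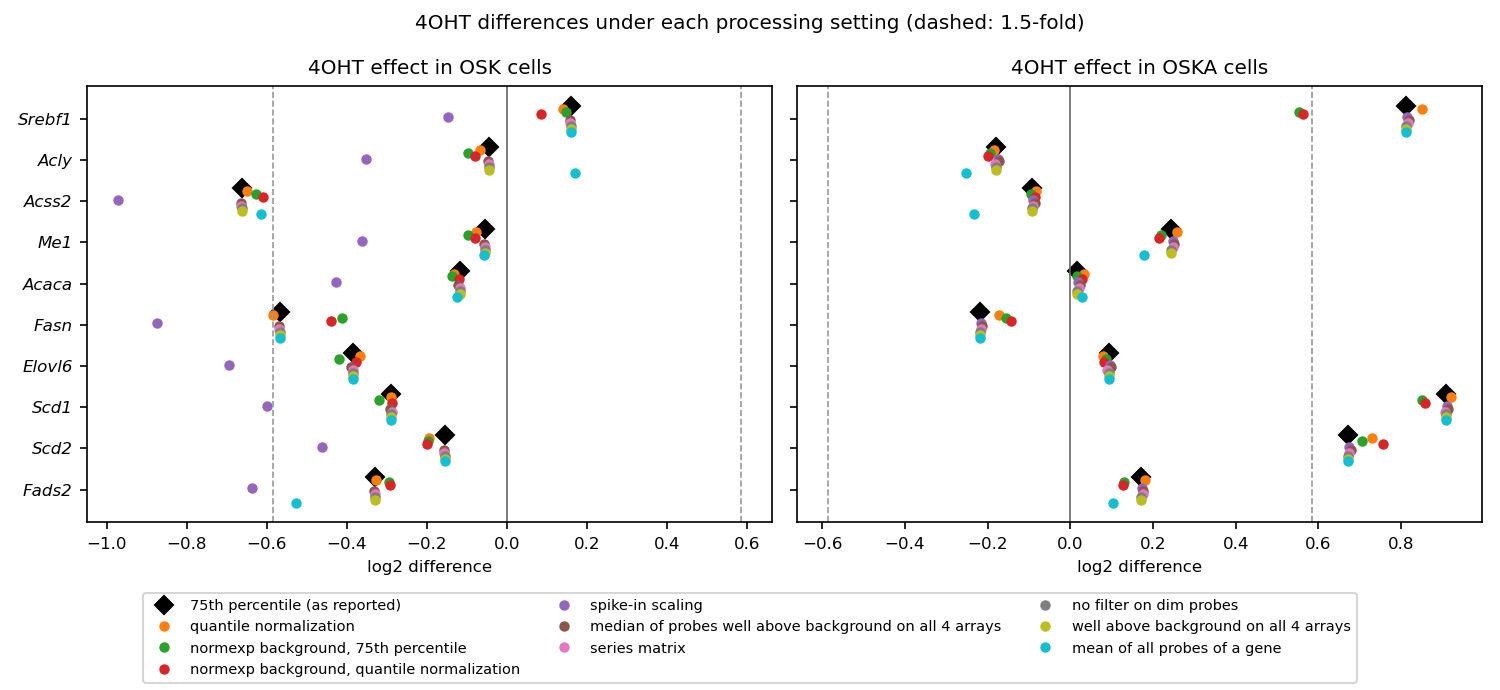
Log2 difference with 4OHT in OSK cells (left) and OSKA cells (right) for each gene under the reported setting (black diamonds) and 9 alternatives (colored points). Scd1 and Scd2 stayed beyond the dashed 1.5-fold line in OSKA cells under all of them, Srebf1 dropped below it with normexp, and spike-in scaling moved every OSK value down.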

How the data were processed

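Cells were transduced, treated and sampled as in the report, and 100 ng of RNA per sample was labeled with Cy3 by the authors and hybridized to 1-color Agilent arrays. The deposited intensity of each spot is the background-subtracted signal of Agilent Feature Extraction 10.7.3.1, per the file headers, and was not normalized between arrays. The authors' value table of the same arrays holds linear intensities equal to these up to rounding (ratio 0.995 to 1.005), neither centered nor scaled, and was used as an alternative. Each array held 62976 spots, 59305 of them not controls; 104 to 155 outlier spots were left out, and 52.4 to 55.4% of spots were well above background.

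From these, log2 intensity minus the array's 75th percentile was computed, spots of a probe were averaged, and a difference was taken where the gene was well above background on both arrays. The study's 2-fold threshold was an alternative to 1.5-fold. The members, lists and rule for naming genes were chosen with earlier results of these data known: all 10 genes are named, and of each other list up to 4 genes past 1.5-fold with 4OHT, plus Srebf2, Insig1, Slc25a1, Acacb and Fads1. Thrsp, Mlx, Nr1h3, Mlxipl, Scd3, Scd4 and the markers were named after their values were seen, and some genes that the rule names are not reported here. RefSeq accessions named 27509 probes (49.4%), and the others kept the file's name. Signal over background limits precision. Python 3.11.15, numpy 2.4.6, pandas 2.3.3, R 4.3.3 and limma 3.58.1 (normexp, offset 50, and quantile normalization) were used, and the scripts were tested on simulated data.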

Additional observations from a re-analysis of the deposited data

Results flagged for a closer look

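Scd1 was the only one of the 10 genes whose difference with 4OHT had opposite signs in OSKA and OSK cells with each larger than the scanner software's error: 0.91 in OSKA cells (software error 0.20) and −0.29 in OSK cells (0.20), a gap of 1.20 on the log2 scale. With 1 array per group this difference was not tested.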

How the results depend on the processing

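No paired analysis was possible because each group was 1 array, and for the same reason no array could be left out. The 2 filters on dim probes and the authors' value table could not change the 10 genes beyond rounding. Of 240 values of single genes under the 6 other settings, 217 moved by less than the software's error. These 217 include the values of the 5 genes with 1 probe under probe averaging, which could not move. Scaling to the 253 spike-in spots moved the median of all genes by −0.31 for 4OHT in OSK cells, 0.00 in OSKA cells, −0.44 for AKT-MER without 4OHT and −0.13 with 4OHT. With it the median of the 10 genes became −0.53 for 4OHT in OSK cells and −0.60 for AKT-MER without 4OHT, and the genes past 1.5-fold became 5, 6 and, for AKT-MER with 4OHT, 1 (Scd1). Signs then turned for Srebf1 with 4OHT in OSK cells (−0.15), Acly and Me1 for AKT-MER without 4OHT (−0.33 and −0.34) and Acaca with 4OHT (−0.03). The mean of all Acly probes gave 0.17 in OSK cells. At 2-fold the counts were 0 for 4OHT in OSK cells, 0 in OSKA cells and 0 for AKT-MER with 4OHT. Normexp left 2 genes past 1.5-fold in OSKA cells, without Srebf1. The dimmest probes (Srebf1, Fasn and several second probes) are the least certain.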

Other observations

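Thrsp, a lipogenic protein that accompanies fatty acid synthase in liver and fat and a relative of Mid1ip1, was well above background only on the AKT-activated array. Its level there was −2.57, against a lowest measurable level of −4.90 on the AKT-nonactivated array and −4.54 on the OSK array with 4OHT, so it was at least 5.03-fold and at least 3.92-fold higher than on those arrays. It was measured by 1 probe on 1 array, and it was named after its values were seen.

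Genes of fatty acid oxidation, the opposing pathway, showed no common direction. With 4OHT in OSKA cells 8 of 19 were higher and 11 lower (45.2% of all genes were higher), with a median of −0.03. None passed 1.5-fold, which 5.06% of all measured genes passed upward and 4.64% downward. In OSK cells Cpt1b, the muscle form of carnitine palmitoyltransferase, gave 0.92 by 1 probe and 0.22 by another. Adipocyte markers were mixed. Fabp4, Pparg, Cebpa and Lipe were well above background on all 4 arrays, and their differences with 4OHT in OSKA cells were 0.05, 0.10, −0.27 and −0.08. Plin1, Cidec, Lep and Cfd were not well above background on any array, and Adipoq and Retn only on that of OSK cells without 4OHT. The summed linear level of the 10 markers was 3.37, 3.82, 3.99 and 3.88 in OSK without, OSK with, OSKA without and OSKA with 4OHT. That sum was not highest on the AKT-activated array.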
